A study of Homo sapiens with 6 samples.

Results

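The core genes of TGF-beta signalling were followed in T47D, a human luminal breast cancer cell line that expresses the estrogen receptor, after transfection with either a HOTAIR-N siRNA or a control siRNA. The 10 genes were chosen by name, with no measured value in the rule: the ligand genes TGFB1, TGFB2 and TGFB3, the receptor genes TGFBR1 and TGFBR2, the signal-transducing SMAD2, SMAD3 and SMAD4, and the inhibitory SMAD6 and SMAD7. All 10 are among the 27968 genes of the deposited tables, and 9 of the 14919 genes expressed highly enough to be tested were of this set. The HOTAIR-N siRNA group and the control siRNA group held 3 libraries each, from separate transfections of the same line, with total RNA taken 48 hours after transfection. Both groups were grown in RPMI1640 with 10% fetal bovine serum and received the same lipid reagent, RNAiMAX, and nothing in the labels tells HOTAIR-N apart from other forms of HOTAIR or gives the siRNA sequences.

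TGF-beta ligands are secreted as latent dimers, held by their own propeptides and by latent TGF-beta binding proteins until integrins, thrombospondin or proteases release them. The free ligand binds the type II receptor, which phosphorylates the type I receptor, and this in turn phosphorylates SMAD2 and SMAD3, which enter the nucleus with SMAD4. SMAD7 blocks this chain at the receptor, while SMAD6 acts mainly against the related BMP signal. Both are themselves induced by TGF-beta or by BMP. In normal breast epithelium the pathway restrains division, and in carcinomas it is known for its part in invasion and epithelial-mesenchymal transition.

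The libraries held between about 31777000 and 36707200 expected counts, the estimated read numbers per gene. In earlier results of these data HOTAIR-N siRNA replicate 3 and control siRNA replicate 2 stood apart from their groups, and here their deviations from the group means correlated at r = 0.22 across genes, which are not independent. The 6 calls among the genes described here held without this pair of libraries. HOTAIR, the target, was at 5.65, 5.63 and 5.68 CPM (expected counts scaled to library size with TMM factors) in the HOTAIR-N siRNA libraries, against 16.2, 16.1 and 16.6 CPM in the control siRNA libraries. All 10 luminal breast marker genes were expressed, with KRT8 the most abundant, and their summed level was 8245 to 9111 TPM (a level scaled to library size and transcript length) with the HOTAIR-N siRNA and 9103 to 10323 TPM with the control siRNA. Within that sum 6 genes fell, among them the hormone receptor genes ESR1, to 32.1%, and PGR, to 36.4%, and KRT18, to 65.8% of control, and TFF1 rose 3.07-fold and CDH1 1.86-fold. Beside these stand 34.8% of all tested genes called lower and 36.2% called higher. Fibroblast markers summed to 12.4 to 13.9 TPM with the HOTAIR-N siRNA and 9.12 to 10.4 TPM with the control siRNA, with COL1A1 the highest single gene and FAP at 0. Their 3 tested genes went opposite ways: LUM rose, at 4.74 ± 0.193 TPM with the HOTAIR-N siRNA and 0.233 ± 0.0208 TPM with the control siRNA, while COL1A1 fell, at 8.01 ± 0.692 and 9.37 ± 0.697 TPM (SD, n = 3 each), and COL3A1 fell to 30.2% of control. Immune markers summed to 3.83 to 4.93 TPM against 2.98 to 3.18 TPM and endothelial markers to 0.03 to 0.08 TPM against 0.01 to 0.02 TPM, and whether these marker changes have a part in the results was not tested. In these bulk samples fewer cells of a kind and less RNA per cell cannot be told apart.

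TGFB2 rose 4.01-fold and TGFB3 2.14-fold after the HOTAIR-N siRNA, while TGFB1 fell to 31.4% of control. TGFBR1 rose 1.3-fold and SMAD6 1.52-fold, SMAD7 fell to 84.4% of control, and SMAD2, SMAD3 and SMAD4 were not called. In all, 4 of the 9 tested genes were called higher and 2 lower, where 36.2% of all tested genes were called higher and 34.8% lower in edgeR's quasi-likelihood test at a Benjamini-Hochberg adjusted p under 0.05. The share of called genes in the set, 6 of 9, is thus near the 71.1% of all tested genes, and the 6 whose libraries did not overlap between the groups stand beside 73.4% of all. With library totals as the only scaling the split was 5 higher and 1 lower, and that of all genes 6480 higher and 4263 lower, against 5407 and 5198 with TMM.

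**Figure D1:**
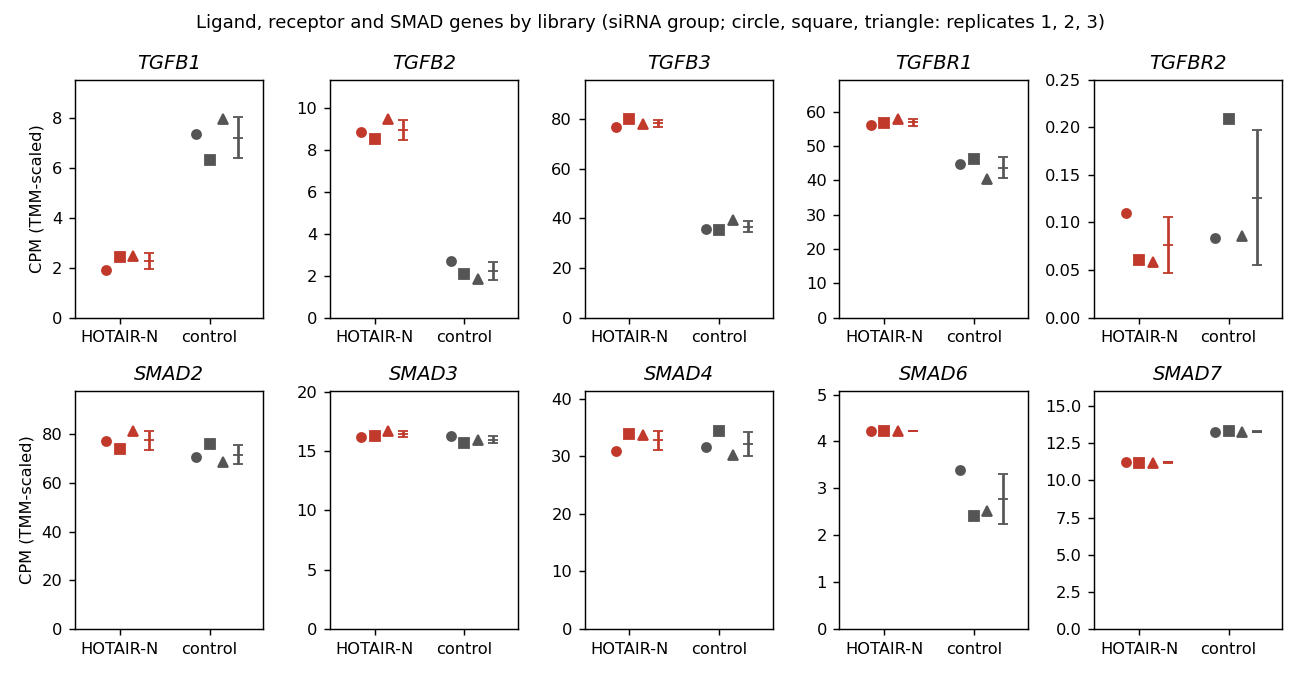
CPM (y axis, linear, from 0) of each gene in the 3 HOTAIR-N siRNA libraries (left, red) and the 3 control siRNA libraries (right, grey), with mean and SD beside the points. TGFB1 and SMAD7 lie wholly below control, TGFB2, TGFB3, TGFBR1 and SMAD6 wholly above, and TGFBR2 stays under 0.21 CPM in every library.

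Before their values, the promoters of the 3 ligand genes are shown because the ligands had the largest changes of the set. Each is the RefSeq window of 250 bases before to 50 bases after the start site in GRCh38.p14, written 5′ to 3′ on the gene's strand. TGFB1 lies at chr19:41353873-41354172 on the minus strand, TGFB2 at chr1:218345086-218345385 on the plus strand and TGFB3, at the start site with a TATA box, at chr14:75981946-75982245 on the minus strand. Capitals mark CCCGCC, the core of a GC box, in TGFB1, and TATAAA and ACGTCA, the core of a cAMP response element, in TGFB2 and TGFB3.
TGFB1: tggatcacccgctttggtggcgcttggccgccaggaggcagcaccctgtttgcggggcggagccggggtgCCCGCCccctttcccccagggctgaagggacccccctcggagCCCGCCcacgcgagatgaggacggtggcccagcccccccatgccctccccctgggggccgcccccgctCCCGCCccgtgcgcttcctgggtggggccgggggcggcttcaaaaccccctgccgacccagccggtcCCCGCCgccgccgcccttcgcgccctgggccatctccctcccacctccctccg
TGFB2: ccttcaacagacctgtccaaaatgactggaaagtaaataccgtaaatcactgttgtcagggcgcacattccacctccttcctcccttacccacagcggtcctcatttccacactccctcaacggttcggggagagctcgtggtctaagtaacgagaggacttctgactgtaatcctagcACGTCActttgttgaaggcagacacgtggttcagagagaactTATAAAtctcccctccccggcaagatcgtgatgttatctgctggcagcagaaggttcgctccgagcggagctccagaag
TGFB3: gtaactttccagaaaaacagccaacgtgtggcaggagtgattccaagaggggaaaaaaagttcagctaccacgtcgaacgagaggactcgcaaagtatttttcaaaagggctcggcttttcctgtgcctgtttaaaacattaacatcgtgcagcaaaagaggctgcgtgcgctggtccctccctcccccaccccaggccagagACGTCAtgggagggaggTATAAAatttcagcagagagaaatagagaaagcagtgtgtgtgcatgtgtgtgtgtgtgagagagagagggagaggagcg
The TGFB2 and TGFB3 windows each hold 1 TATAAA, which begins 29 and 30 bases before the start, and 1 ACGTCA, which begins 71 and 47 bases before it. The TGFB1 window holds 4 copies of CCCGCC and neither of these motifs. Searched on both strands, TATAAA (reverse TTTATA) is in 11.5% of the 35116 windows of all genes, ACGTCA (reverse TGACGT) in 7.98% and CCCGCC (reverse GGCGGG) in 45.0%. RefSeq gives TGFB3 another start whose window has none of the 3 motifs. Among the other genes only SMAD7, which fell, has a window that holds TATAAA, and the same window holds 1 copy of CCCGCC. The GC box core is also in windows of SMAD6 (3 copies) and TGFBR1 (up to 6 in 1 window), which rose. Windows of SMAD2 (up to 4 copies), SMAD3 (up to 5) and SMAD4 (2), which were not called, hold it too. The windows of TGFBR2 hold none of the 3 motifs. A match of letters describes the sequence and shows no binding.

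TGFB3, a ligand with a role in palate and mammary gland biology, was the most abundant ligand in both groups. Its level was 77.1, 80.0 and 78.1 CPM in the HOTAIR-N siRNA libraries, against 35.6, 35.2 and 39.3 CPM in the control siRNA libraries. Every HOTAIR-N siRNA library was above every control library, and the log2 fold change was 1.09 (SE 0.06; adjusted p = 5.3e-09 by edgeR).

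TGFB2, the ligand that depends most on the co-receptor betaglycan, was low in control cells. It had 323, 281 and 327 expected counts in the HOTAIR-N siRNA libraries and 97.1, 70.7 and 65 in the control siRNA libraries, or 8.86, 8.55 and 9.47 CPM against 2.72, 2.10 and 1.86 CPM. The groups lay far apart, and the log2 fold change of 2.00 (SE 0.13; adjusted p = 3.3e-08 by edgeR) was larger in size than that of 96.7% of all tested genes. TGFB2-AS1, a noncoding RNA gene on the opposite strand whose span overlaps that of TGFB2 by 343 bases, had 20, 14 and 18 counts in the HOTAIR-N siRNA libraries and 1, 0 and 1 in the control siRNA libraries. It was named after its values were seen, and it rose as well (edgeR quasi-likelihood adjusted p = 1.0e-05). No source used here tells how strand was handled in counting, so reads from the shared stretch are uncertain between both genes. The counts of TGFB2-AS1 are few beside those of TGFB2, and whether its rise holds reads of TGFB2 was not tested.

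TGFB1, the ligand most studied in tumours, went the other way. Its counts were 69, 80 and 85 in the HOTAIR-N siRNA libraries and 262, 212 and 277 in the control siRNA libraries, or 1.89, 2.43 and 2.46 CPM against 7.34, 6.31 and 7.93 CPM. The highest HOTAIR-N siRNA library was well below the lowest control library, and the log2 fold change was -1.67 (SE 0.13; adjusted p = 2.5e-07 by edgeR).

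On the per-length TPM scale the 3 ligands together reached 47.7, 50.1 and 49.4 TPM in the HOTAIR-N siRNA libraries, against 26.0, 24.8 and 28.0 TPM in the control siRNA libraries. TGFB3 made up 90.7% ± 0.536 of this sum with the HOTAIR-N siRNA and 77.8% ± 1.37 with the control siRNA (SD, n = 3 each). TGFB1 took 3.35% ± 0.423 with the HOTAIR-N siRNA and 19.5% ± 1.17 with the control siRNA, and TGFB2 took 5.94% ± 0.36 and 2.72% ± 0.618 (SD, n = 3 each). In each HOTAIR-N siRNA library TGFB2 exceeded TGFB1 in TPM, and in each control library TGFB1 exceeded TGFB2. No test was made of these shares, which combine the values tested above.

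**Figure D2:**
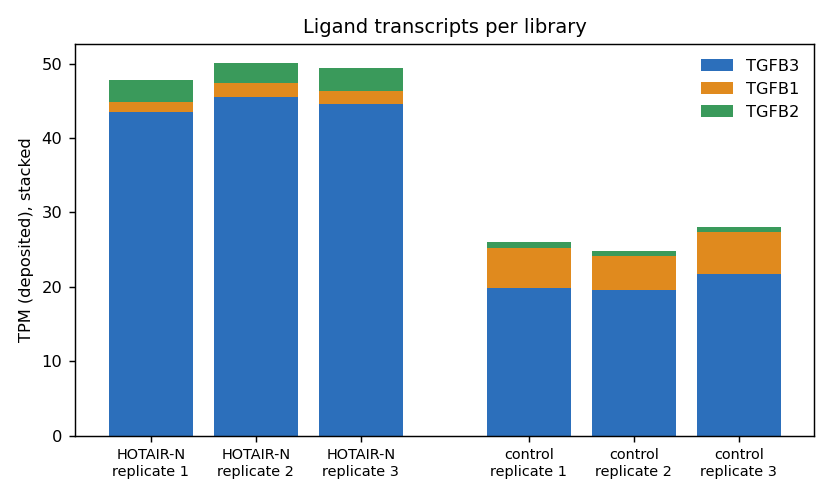
Deposited TPM (y axis, stacked, from 0) of TGFB3, TGFB1 and TGFB2 in each library, HOTAIR-N siRNA at left and control siRNA at right. The stack is 47.7 to 50.1 TPM with the HOTAIR-N siRNA and 24.8 to 28.0 TPM with the control siRNA, and most of it is TGFB3 in every library.

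The receptor genes were far from balanced. TGFBR1, the type I receptor kinase, was at 56.0, 56.8 and 57.7 CPM in the HOTAIR-N siRNA libraries, against 44.6, 46.2 and 40.3 CPM in the control siRNA libraries, with no overlap (log2 fold change 0.38, SE 0.06; adjusted p = 9.9e-05 by edgeR). TGFBR2, the type II receptor that binds the ligand, had only 4, 2 and 2 counts in the HOTAIR-N siRNA libraries and 3, 7 and 3 in the control siRNA libraries. At this depth it was too low to be tested, and the groups overlapped. In TPM, TGFBR1 averaged 16.8 ± 0.335 with the HOTAIR-N siRNA and 12.6 ± 0.934 with the control siRNA, while TGFBR2 averaged 0.0333 ± 0.0153 and 0.0533 ± 0.0321 (SD, n = 3 each).

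None of the SMADs that carry the signal was called. SMAD2 was at 77.3, 73.8 and 81.5 CPM in the HOTAIR-N siRNA libraries and 70.5, 75.9 and 68.6 CPM in the control siRNA libraries, and these ranges overlap. Its log2 fold change was 0.11, with a 95% interval of -0.01 to 0.24 (edgeR quasi-likelihood adjusted p = 0.089). It was called higher under some alternatives, with an adjusted p = 0.0040 when library totals were the only scaling, 0.015 with upper-quartile scaling, 0.049 without HOTAIR-N siRNA replicate 2 and 0.021 without control siRNA replicate 2. SMAD3 was at 16.2, 16.3 and 16.7 CPM with the HOTAIR-N siRNA and 16.3, 15.7 and 15.9 CPM with the control siRNA, with a 95% interval of the log2 fold change of -0.09 to 0.17 (edgeR quasi-likelihood adjusted p = 0.57). SMAD4, the partner shared with the BMP pathway, was at 30.9, 33.8 and 33.7 CPM with the HOTAIR-N siRNA and 31.6, 34.4 and 30.2 CPM with the control siRNA. Its 95% interval was -0.11 to 0.17 (edgeR quasi-likelihood adjusted p = 0.69). SMAD2 exceeded SMAD3 in TPM by a factor of 2.65 to 2.82 in the HOTAIR-N siRNA libraries and 2.52 to 2.77 in the control siRNA libraries.

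The inhibitory SMADs went opposite ways. SMAD6, known mainly as an inhibitor of BMP signalling, had 154, 139 and 146 counts in the HOTAIR-N siRNA libraries and 121, 81 and 88 in the control siRNA libraries, or 4.23 CPM in all 3 of the HOTAIR-N siRNA group against 3.39, 2.41 and 2.52 CPM. Control siRNA replicate 1 stood nearest to the HOTAIR-N siRNA libraries but did not reach them, and the log2 fold change was 0.60 (SE 0.14; adjusted p = 0.0017 by edgeR). SMAD7, which brings SMURF ubiquitin ligases to the receptor, was at 11.3, 11.2 and 11.2 CPM with the HOTAIR-N siRNA and 13.3, 13.3 and 13.2 CPM with the control siRNA. The libraries of each group almost coincide, and the log2 fold change was -0.24 (SE 0.06; adjusted p = 0.0043 by edgeR). A difference of this size is sensitive to scaling, and with library totals alone SMAD7 was not called (log2 fold change -0.15, adjusted p = 0.051), nor was it in a test against a 1.2-fold change (adjusted p = 0.53).

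**Figure D3:**
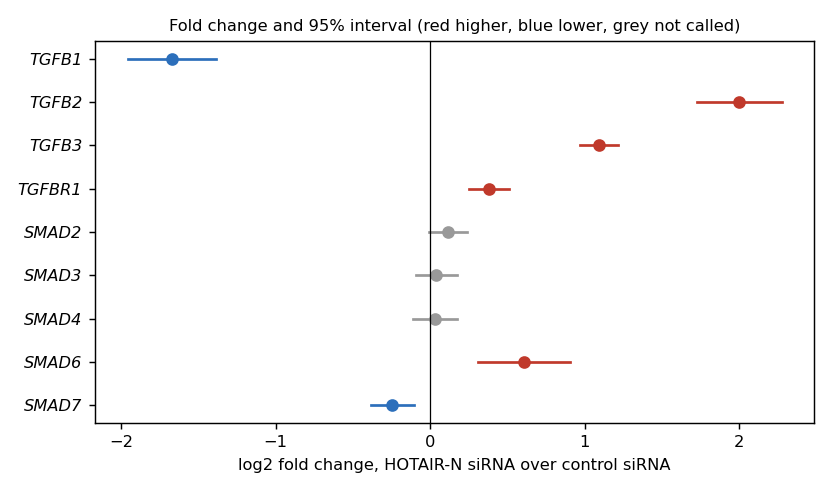
Log2 fold change of the 9 tested genes, HOTAIR-N siRNA over control siRNA (x axis), with 95% intervals from the edgeR fit. TGFB2 at 2.00 and TGFB1 at -1.67 are the farthest from 0, and the intervals of SMAD2, SMAD3 and SMAD4 include 0.

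The SMAD6 promoter is shown because it holds GTCTAGAC, the palindrome that SMAD3 and SMAD4 are known to bind. The window is chr15:66701986-66702285 of GRCh38.p14, on the plus strand, from RefSeq, and capitals mark the palindrome.
SMAD6: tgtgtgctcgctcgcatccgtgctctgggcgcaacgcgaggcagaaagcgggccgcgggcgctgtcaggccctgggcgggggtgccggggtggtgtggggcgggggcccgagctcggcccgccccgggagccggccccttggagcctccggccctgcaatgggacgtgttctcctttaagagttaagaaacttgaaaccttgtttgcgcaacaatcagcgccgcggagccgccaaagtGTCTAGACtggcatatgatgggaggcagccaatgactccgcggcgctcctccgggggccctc
It begins 12 bases before the start site. GTCTAGAC reads the same on both strands and is in 71 of the 35116 windows, or 0.202%. Of the other 9 genes none holds it in a listed window, which for SMAD7 means 3 windows, and this says only that the letters are not there.

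Across the 10 genes the order of TPM levels changed in the place of TGFB1, ninth with the HOTAIR-N siRNA and sixth with the control siRNA, and in that of the neighbours TGFBR1 and SMAD2. With the HOTAIR-N siRNA it ran TGFB3, TGFBR1, SMAD2, SMAD7, SMAD4, SMAD3, SMAD6, TGFB2, TGFB1 and TGFBR2, and only SMAD6 and TGFB2, at 2.93 ± 0.0153 and 2.91 ± 0.159 TPM (SD, n = 3 each), overlapped with their neighbour. With the control siRNA it ran TGFB3, SMAD2, TGFBR1, SMAD7, SMAD4, TGFB1, SMAD3, SMAD6, TGFB2 and TGFBR2. There the libraries of SMAD2 and TGFBR1 overlapped, at 12.8 ± 0.693 and 12.6 ± 0.934 TPM, as did those of TGFB1 and SMAD3, at 5.14 ± 0.583 and 4.91 ± 0.108 TPM (SD, n = 3 each).

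The transcript tables list 27 RefSeq transcripts of the 10 genes, of which 19 could be tested. In edgeR's quasi-likelihood test over all transcripts 4 were called higher and 2 lower, where 32% of all 32285 tested transcripts were called, 15.4% higher and 16.6% lower. The called ones were NM_000660, the sole transcript of TGFB1, which was lower, and NM_003238 and NM_001135599 of TGFB2, NM_001329939 of TGFB3 and NM_004612 of TGFBR1, which were higher. NM_001130916 of TGFBR1 was lower. The share that a transcript takes of the tested transcripts of its gene was tested with limma for 16 transcripts of 6 genes. Of these 2 were called, where 6.12% of all transcripts in that test were.

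NM_001135599 of TGFB2 is 84 bases longer than the main form NM_003238 and was counted in the HOTAIR-N siRNA libraries alone. So were the untested forms NR_138148, with 13.3, 24.4 and 0 counts, and NR_138149, with 2.68, 6.91 and 0, so every control count went to NM_003238. NM_001135599 was the largest of these minor forms. It took 16.1%, 21.2% and 12.7% of TGFB2 in these, and 0% in each control siRNA library, with 155 against 0 estimated counts over the 3 libraries (limma adjusted p of the share = 0.0028). NM_003238 itself rose, with a log2 fold change of 1.66 (SE 0.23; adjusted p = 0.0035 by edgeR), so the higher level of TGFB2 did not rest on the longer form alone. Control cells had only about 77.6 counts of TGFB2 per library to divide between forms.

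NM_001130916 of TGFBR1, which is 231 bases shorter than the main form NM_004612, took 0% in each HOTAIR-N siRNA library, against 1.12%, 4.23% and 3.72% in the control siRNA libraries (limma adjusted p of the share = 0.0070). It amounted to 0 against 131 estimated counts over the 3 libraries, a small part of the gene, and NM_004612 took 88.9% ± 3.29 and 86.8% ± 0.516 (SD, n = 3 each). Transcripts of 1 gene share most of their sequence, so these splits are estimates, and an exact 0 can be a failed estimate. In a fit with replicate number as a block neither share was called (adjusted p = 0.079 for TGFB2 and 0.091 for TGFBR1).

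The shares of the TGFB3 and SMAD3 transcripts varied widely between libraries of 1 group. NM_001329939 of TGFB3 took 44.5%, 70.3% and 42.7% in the HOTAIR-N siRNA libraries and 30.7%, 49.5% and 41.4% in the control siRNA libraries (limma adjusted p = 0.60). NM_001145102 of SMAD3 took 0%, 19.8% and 32.7% in the HOTAIR-N siRNA libraries and 34.8%, 0% and 17.2% in the control siRNA libraries. SMAD7 was divided mainly between NM_001190822, at 56.3% ± 5.39 and 58.1% ± 2.29, and NM_005904, at 35.9% ± 6.92 and 34.2% ± 2.42 (HOTAIR-N siRNA and control siRNA, SD, n = 3 each), and neither share was called.

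**Figure D4:**
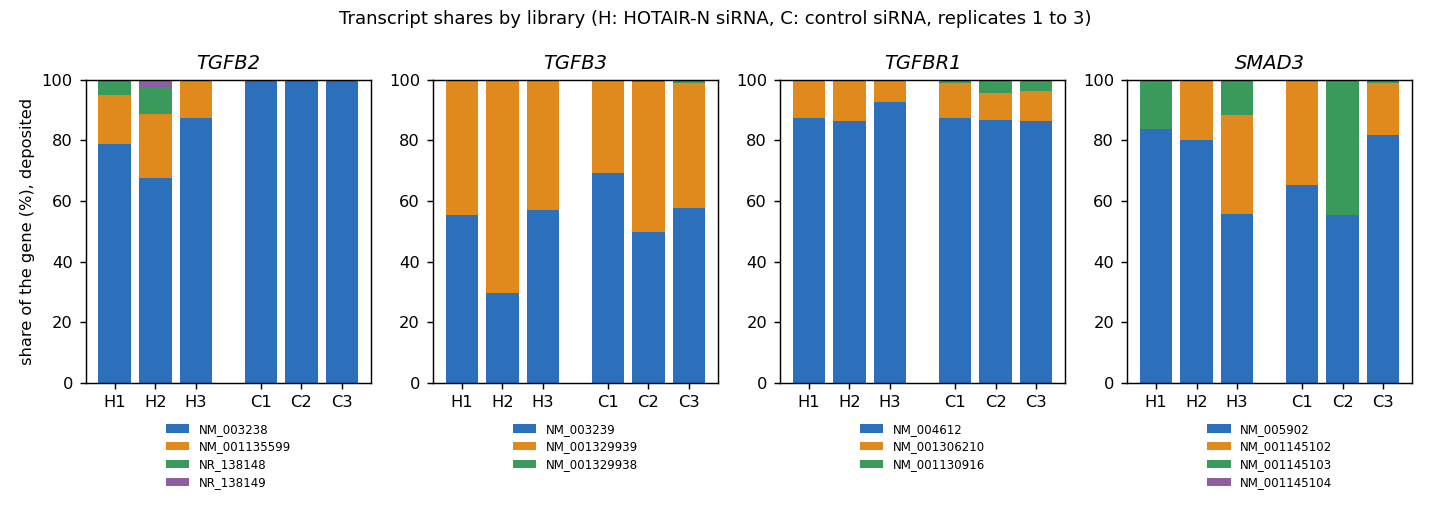
Share of each RefSeq transcript in its gene (y axis, percent, as deposited) for TGFB2, TGFB3, TGFBR1 and SMAD3, HOTAIR-N siRNA libraries at left and control siRNA libraries at right in each panel. The longer TGFB2 form appears in the 3 HOTAIR-N siRNA libraries alone, and the SMAD3 and TGFB3 shares vary within each group.

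The genes whose profile over the 6 libraries lay nearest to those of the members with the largest rise and fall were found among 10224 tested genes, all averaging a log2 CPM of 3 or more. The measure was the root mean square difference of log2 CPM after subtraction of the control mean. For TGFB2 these were MAPRE2, a microtubule end-binding protein (0.086), GRHL3, an epithelial transcription factor (0.11), and KMO, an enzyme of tryptophan breakdown (0.14). For TGFB1 they were PEX14, a peroxisomal import factor (0.12), CAVIN1, a coat protein of caveolae (0.12), and RAVER1, a splicing cofactor (0.12). They were picked for this likeness, which carries no test.

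Genes that hold and release the ligands changed in both directions. Of 12 tested genes of latency and activation, 6 rose, 3 fell and 3 were not called, with a median log2 fold change of 0.14, against 0.02 over all tested genes. The shares called over all tested genes were 36.2% higher and 34.8% lower. The integrin subunit genes ITGB6 and ITGB8, whose products activate latent TGF-beta together with the alpha V subunit, rose 4.26-fold and 3.95-fold. ITGB6 was at 12.0, 12.3 and 11.8 CPM in the HOTAIR-N siRNA libraries, against 3.17, 2.77 and 2.52 CPM in the control siRNA libraries. ITGB8 was at 3.65 ± 0.0506 CPM with the HOTAIR-N siRNA and 0.922 ± 0.254 CPM with the control siRNA (SD, n = 3 each). LTBP1, which binds the latent ligand to matrix, fell to 31.6% of control, at 59.3, 57.4 and 64.2 CPM with the HOTAIR-N siRNA and 187, 195 and 192 CPM with the control siRNA. THBS1, thrombospondin 1, an activator of latent TGF-beta, fell to 34.9% of control, at 190 ± 7.11 CPM against 545 ± 3.09 CPM (SD, n = 3 each). MFAP2, a microfibril protein, was the third that fell, to 66.4% of control. These 5 genes had no overlap between groups, as had 73.4% of all tested genes (edgeR quasi-likelihood adjusted p = 0.00044 or less for the 5). LTBP3 and LTBP4, relatives of LTBP1, rose 1.18-fold and 1.38-fold, so that neither the binding proteins nor the activators moved one way (adjusted p = 0.0048 and 0.00099 by edgeR). The other rises were of ITGAV, the alpha V subunit gene, 1.38-fold, and of NRROS, 2.82-fold (adjusted p = 1.0e-05 and 0.00066 by edgeR). NRROS was low, at 0.796 CPM with the HOTAIR-N siRNA and 0.278 CPM with the control siRNA.

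Among activin, nodal and GDF ligands and co-receptors, 3 of 12 tested genes rose and 5 fell, with a median log2 fold change of -0.20. The shares over all tested genes were 36.2% higher and 34.8% lower. TGFBR3, which encodes betaglycan, the co-receptor that presents TGF-beta 2, was at 2.61, 2.83 and 2.46 CPM in the HOTAIR-N siRNA libraries, against 5.72, 5.84 and 5.27 CPM in the control siRNA libraries, or 47% of control. The activin subunit gene INHBE fell to 50.4% and the activin type I receptor gene ACVR1B to 79.1% of control. GDF15, a stress-induced cytokine, rose 1.63-fold, INHBB, an activin subunit, 1.13-fold and the activin receptor gene ACVR2B 1.18-fold (edgeR quasi-likelihood adjusted p = 0.011 or less for each gene named here).

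Of 25 tested regulators of SMADs, 9 rose, 12 fell and 4 were not called, with a median log2 fold change of -0.11, where 36.2% of all tested genes rose and 34.8% fell. With library totals alone the split was 10 higher and 8 lower. LDLRAD4, a membrane protein that keeps SMAD2 and SMAD3 from the receptor, fell most, to 28.0% of control, at 2.73 ± 0.205 CPM with the HOTAIR-N siRNA and 9.77 ± 0.238 CPM with the control siRNA (SD, n = 3 each). HIPK2, a kinase that acts with SKI as a corepressor, fell to 49.5%, and SMURF1, a ubiquitin ligase for receptors and SMADs, to 64.7% of control. LEMD3, an inner nuclear membrane protein that binds SMADs, fell to 64.7%, the corepressor gene SKI to 66.2%, and the ubiquitin ligase genes RNF111 and TRIM33 to 68.8% and 71.0% of control. The other 5 that fell were ZFYVE9, TGIF1, BAMBI, UCHL5 and TGIF2, at 85.1% to 90.5% of control. NEDD4L, another ubiquitin ligase, rose 1.57-fold, and its relative WWP1 1.34-fold. SKIL, a SMAD corepressor that TGF-beta itself induces, rose 1.33-fold, STRAP, a receptor-binding inhibitor, 1.31-fold and the sorting nexin gene SNX6 1.28-fold. ARRB2, USP9X, PMEPA1 and FKBP1A, which encode an arrestin, a deubiquitinase of SMAD4, a SMAD-sequestering membrane protein and a receptor-binding immunophilin, rose 1.13-fold to 1.15-fold. Tested against a 1.2-fold change, 12 of the 25 were called, and 6876 of all 14919 tested genes.

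Transcription factors that act with SMADs were also split, with 7 of 15 tested higher, 6 lower and a median log2 fold change of 0.08. Over all tested genes 36.2% were higher and 34.8% lower. The runt factor gene RUNX1 fell to 52.2%, ATF2, a bZIP factor, to 66.9%, TCF3 to 70.0% and SP1, which binds GC boxes, to 71.7% of control. The other falls were of RBL1 and E2F5, a pocket protein and its E2F partner that take TGF-beta signals to MYC, to 74.3% and 82.0% of control. The rises were of FOXH1, 2.70-fold at only 0.554 CPM with the HOTAIR-N siRNA and 0.207 CPM with the control siRNA, and of CEBPB, TFE3, RUNX2, E2F4, the coactivator gene EP300 and FOXO3, by 1.14-fold to 1.26-fold. Tested against a 1.2-fold change, 1 was higher and 5 were lower, where 3564 of all 14919 tested genes were higher and 3312 lower.

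Of 25 tested genes known to be induced by TGF-beta in epithelial or mesenchymal cells, 10 rose, 10 fell and 5 were not called. Beside these stand 36.2% higher and 34.8% lower among all tested genes. The median log2 fold change of the 25 was -0.04. CDKN2B, the inhibitor p15 of cyclin-dependent kinases, rose 3.6-fold, with 38.0, 43.5 and 44.5 CPM in the HOTAIR-N siRNA libraries, against 11.2, 11.9 and 11.9 CPM in the control siRNA libraries. CTGF, a matricellular growth factor, rose 11.6-fold but reached only 1.93 ± 0.146 CPM with the HOTAIR-N siRNA, against 0.162 ± 0.104 CPM with the control siRNA (SD, n = 3 each). TAGLN, an actin-binding protein, rose 2.18-fold, and fibronectin (FN1) fell to 32.4% of control, at 16.0, 16.2 and 16.3 CPM with the HOTAIR-N siRNA and 50.7, 50.8 and 48.4 CPM with the control siRNA (edgeR quasi-likelihood adjusted p = 3.9e-07 or less for these 4 genes). Of 8 genes known to be repressed by TGF-beta, 3 rose and 2 fell, where 71.1% of all tested genes were called. With library totals alone 3 rose and 1 fell. ID3, an inhibitor of basic helix-loop-helix factors, rose 2.44-fold, E-cadherin (CDH1) 1.86-fold and MYC 1.16-fold, whereas the phosphatase gene CDC25A fell to 59.5% and BRCA1 to 87.4% of control.

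Of 7 tested BMP SMADs and receptors, 1 rose and 3 fell, against 3 and 3 with library totals alone and with upper-quartile scaling. Of all tested genes 71.1% were called. For 6 of the 7 the libraries did not overlap between the groups, beside 73.4% of all tested genes. The falls were of BMPR2, the BMP type II receptor, at 43.5% of control, the type I receptor gene BMPR1A at 53.7% and SMAD5 at 81.5%, and the rise was of ACVR1, 1.35-fold. BMPR2 was at 30.8 ± 0.765 CPM with the HOTAIR-N siRNA and 70.9 ± 3.4 CPM with the control siRNA (SD, n = 3 each). Of 11 genes of the TAK1 kinase branch, 3 rose and 3 fell, against 5 and 3 with library totals alone and with upper-quartile scaling. These counts too stand beside the 71.1% called over all tested genes. TAB2 and TAB3, related adaptors that bring TAK1 to ubiquitin chains, moved apart, TAB2 to 36.7% of control and TAB3 2.53-fold higher. TAB2 was at 107 ± 6.98 CPM with the HOTAIR-N siRNA and 292 ± 10.7 CPM with the control siRNA, and TAB3 at 120 ± 4.58 and 47.5 ± 1.99 CPM (SD, n = 3 each). MAP3K7, which encodes TAK1, fell to 70.3% and the JNK gene MAPK8 to 61.7% of control (edgeR quasi-likelihood adjusted p = 0.0039 or less for the genes named here).

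**Figure D5:**
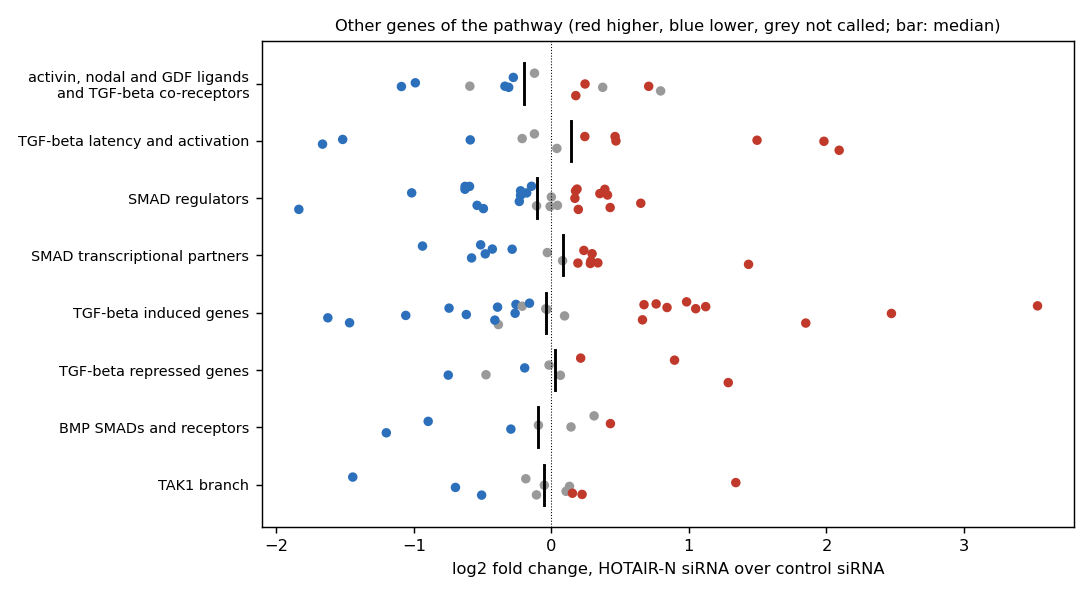
Log2 fold change, HOTAIR-N siRNA over control siRNA (x axis), of every tested gene in 8 lists of pathway genes, with a bar at each median. Each list holds genes on both sides of 0, and the medians lie between -0.20 and 0.14.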

How the data were processed

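Total RNA libraries from 3 HOTAIR-N siRNA and 3 control siRNA transfections were depleted of ribosomal RNA and made with a stranded kit, per the labels' protocols. The submitters' processing notes name STAR 2.6.0c, RSEM 1.3.0 and hg19, without settings. Per the file headers, the authors deposited expected counts and TPM per gene and per RefSeq transcript, and the share of each transcript in its gene as a percent. Library totals ran from about 31777000 to 36707200, which puts 1 CPM at 32.9 to 36.4 counts, and the filter removed at most 0.0446% of a library.

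Expected counts were rounded, filtered (filterByExpr, minimum count 10, minimum total 15), scaled by TMM and tested with edgeR 4.0.16 (quasi-likelihood) in R 4.3.3, with Benjamini-Hochberg adjustment over all genes or transcripts. SE and intervals come from that fit. CPM are on the TMM scale for every gene. Shares were tested with limma 3.58.1 on log2 of (count + 0.5) over (sum of the gene's tested transcripts + 1). The percents printed are the deposited shares, which take in untested transcripts too. Sequences are RefSeq windows of GRCh38.p14, whereas the submitters' processing notes name hg19, and no coordinate was carried over. The steps were tested on simulated counts with known answers, in which far fewer genes changed than were called in these data. No library duplicated another of its group: chi-square divided by its degrees of freedom was at least 2.21. Replicates are separate transfections of 1 line, so p-values measure the spread between those.

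The members and lists were chosen with earlier results of these data known. Named genes are the members, HOTAIR, up to 4 called genes of each list with the largest change and an average log2 CPM of at least 0, called genes against the majority of their list, and the 3 nearest profiles. TGFB2-AS1, the marker genes and the further called genes of the latency, regulator and partner lists were named after their values were seen. LTBP2 is in 2 lists, and CDH1, COL1A1 and COL1A2 are also marker genes. Alternatives were other scalings, DESeq2 1.42.0, limma-voom, other filters and thresholds, the replicate number as a block, and libraries left out.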

Additional observations from a re-analysis of the deposited data

How the results depend on the processing

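TGFB1, TGFB2, TGFB3, TGFBR1 and SMAD6 kept their direction and their call under all 17 alternatives, with log2 fold changes of -1.84 to -1.56, 1.88 to 2.17, 1.05 to 1.19, 0.32 to 0.48 and 0.50 to 0.77. SMAD7 ranged from -0.26 to -0.15. Values near 0 changed sign, SMAD4 to -0.017 without control siRNA replicate 3, the lowest of a range to 0.077 over the libraries left out, and SMAD3 to -0.0044 without the pair of libraries that stood apart (HOTAIR-N siRNA replicate 3, control siRNA replicate 2). Without that pair SMAD2 was called higher (0.10, adjusted p = 0.028). The genes of the set called numbered 6 to 7 when each library was left out, those of all genes 9906 to 10727, the set's transcripts 5 to 7 and its transcript shares 2 to 3. Tested against a 1.2-fold change, 6876 of all genes were called, with 3 activin, nodal and co-receptor genes, 12 SMAD regulators, 6 SMAD partners and 3 repressed genes, a stricter question by construction.

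Deviations of same-numbered libraries from their group means correlated at r = -0.04, -0.21 and -0.12 across genes, which are not independent. Those of the other pairs across the groups ran from -0.13 to 0.22. With 3 libraries per group these values cannot tell whether the numbers pair the libraries. With the replicate block 6 genes of the set were called and 10010 of all, but 0 transcript shares. With a filter of 1 CPM in 3 libraries 1 share was called, since the short TGFBR1 form was no longer tested. TGFBR2 could not be judged at this depth, and counts of 65 to 97.1 limit TGFB2 forms in control cells.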
